A study of Mus musculus with 6 samples.

Results

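The ERK pathway carries signals from growth factor receptors through RAS, RAF and MEK to the ERK kinases. Active ERK switches on target genes, and the products of some of them then damp the same pathway. The RNA of these target genes is widely used as a readout of ERK activity. In salivary glands, EGF and FGF signals that run through this pathway guide branching and the growth of duct and progenitor cells. The genes described here are 10 such ERK target genes, taken by name out of 47643 gene IDs. They are called feedback genes here, whether or not their products damp the pathway. The 10 are the MAP kinase phosphatases *Dusp1*, *Dusp4*, *Dusp5* and *Dusp6*, the Sprouty genes *Spry1*, *Spry2* and *Spry4*, the ETS factors *Etv4* and *Etv5*, and *Phlda1*. All 10 had a count and all 10 passed the filter on low counts, *Spry4* with 5 counts in all.

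The material was organoids of the mouse submandibular salivary gland (mSGOs), which grow in Matrigel from dissociated gland cells. The glands came from 3 C57BL/6 mice that were 8 to 12 weeks old, and each mouse gave untreated, non-irradiated mSGOs that were taken after 5 and after 7 days in culture. By their labels the groups differ in time only, and share the mice and the WRY medium. The medium holds ligands of the pathway, EGF and FGF2 at 20 ng/ml each, beside insulin, the glucocorticoid dexamethasone (1 µM), the ROCK inhibitor Y27632 (10 µM) and Wnt3a- and R-spondin1-conditioned medium. The values are 3′-end read counts (Lexogen QuantSeq), scaled to CPM (counts per 1000000 of the scaled library size) and not divided by gene length, so levels are compared between libraries and not between genes.

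The 6 libraries held 1918198 to 2837397 counts in genes, and depth did not separate the days (exact two-sided permutation p = 0.5, where 3 against 3 libraries allow no p below 0.1). Reads assigned to no gene made up 13.7% to 14.4% of each day 5 library and 9.12% to 9.74% of each day 7 library, and the part of this difference in the results was not tested. The spread between mice was wider at day 7 (edgeR biological coefficient of variation 0.293) than at day 5 (0.0903). The 8 markers of salivary duct epithelium summed to 11560 to 18160 CPM in every library. *Krt14* and *Krt5* had the highest means of the 8 at day 5 (7719 and 5965 CPM). Among the 8, *Krt19* rose (1.78, edgeR adjusted p = 1.56e-05), *Krt8* fell (-0.65, edgeR adjusted p = 0.0374) and 6 did not pass the threshold used below. These keratins are named after their values were seen. Markers of other cell types were low or had no count. Of 8 macrophage markers 6 had no count in any library, as did 4 of 9 fibroblast markers, 2 of 7 endothelial markers and 3 of the 7 acinar markers matched, and the summed levels were at most 6.85, 2.94, 26.0 and 25.5 CPM. The 6 myoepithelial markers summed to 1.51 to 2.48 CPM at day 5 and 7.83 to 13.5 CPM at day 7. Of these other markers, *Cd68* (2.36, edgeR adjusted p = 0.0151) and *Acta2* (6.66, edgeR adjusted p = 0.00262) rose. At day 5 *Cd68* had 1 to 4 counts and *Acta2* had 0. In mouse 3 at day 7, *Egfl7* made up 25.9 CPM of the endothelial sum and *Aqp5* 24.0 CPM of the acinar sum. These genes are also named after their values were seen. The epithelium itself differed between the days. The sum of 9 cycling markers was 1835 to 2124 CPM at day 5 and 719 to 1061 CPM at day 7, and all 9 fell. The sum of 15 squamous differentiation markers was 878 to 1128 CPM at day 5 and 5375, 7510 and 2958 CPM at day 7 in mice 1, 2 and 3, and 12 of the 15 rose. In such bulk libraries, fewer cells of a type and less RNA per cell cannot be told apart, and the part of these shifts in the results below was not tested.

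Of the 10 feedback genes, *Dusp4*, *Dusp5* and *Phlda1* rose and *Dusp6* fell between day 5 and day 7 (edgeR adjusted p under 0.05 and a log2 fold change beyond 0.6 in either direction). That is 4 of 10, where 12.0% of all 15792 genes tested were past the same threshold (7.22% of all genes as higher and 4.82% as lower). Among genes averaging 10 CPM or more it was 4 of 8 members, against 17.6% of 8172 genes. The members were chosen with earlier results of these data known. An unadjusted edgeR p under 0.05 was found for 5 of the 9 members other than *Spry4*, which had too few counts to be read, and for 25.8% of all genes tested. Over all genes, 1140 were higher and 761 lower, a split that turned to 950 and 1008 with library totals only as scaling. The members had a median log2 fold change of 0.54 (0.55 without *Spry4*), against -0.0073 over all genes tested. The members did not go in 1 direction, and the phosphatases held the largest rise and the only fall. The count of 4 rested on single libraries. Leaving out day 5 replicate 1, 2 or 3 gave counts of 1, 2 and 2, and leaving out day 7 replicate 1, 2 or 3 gave 3, 1 and 6.

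**Figure D1:**
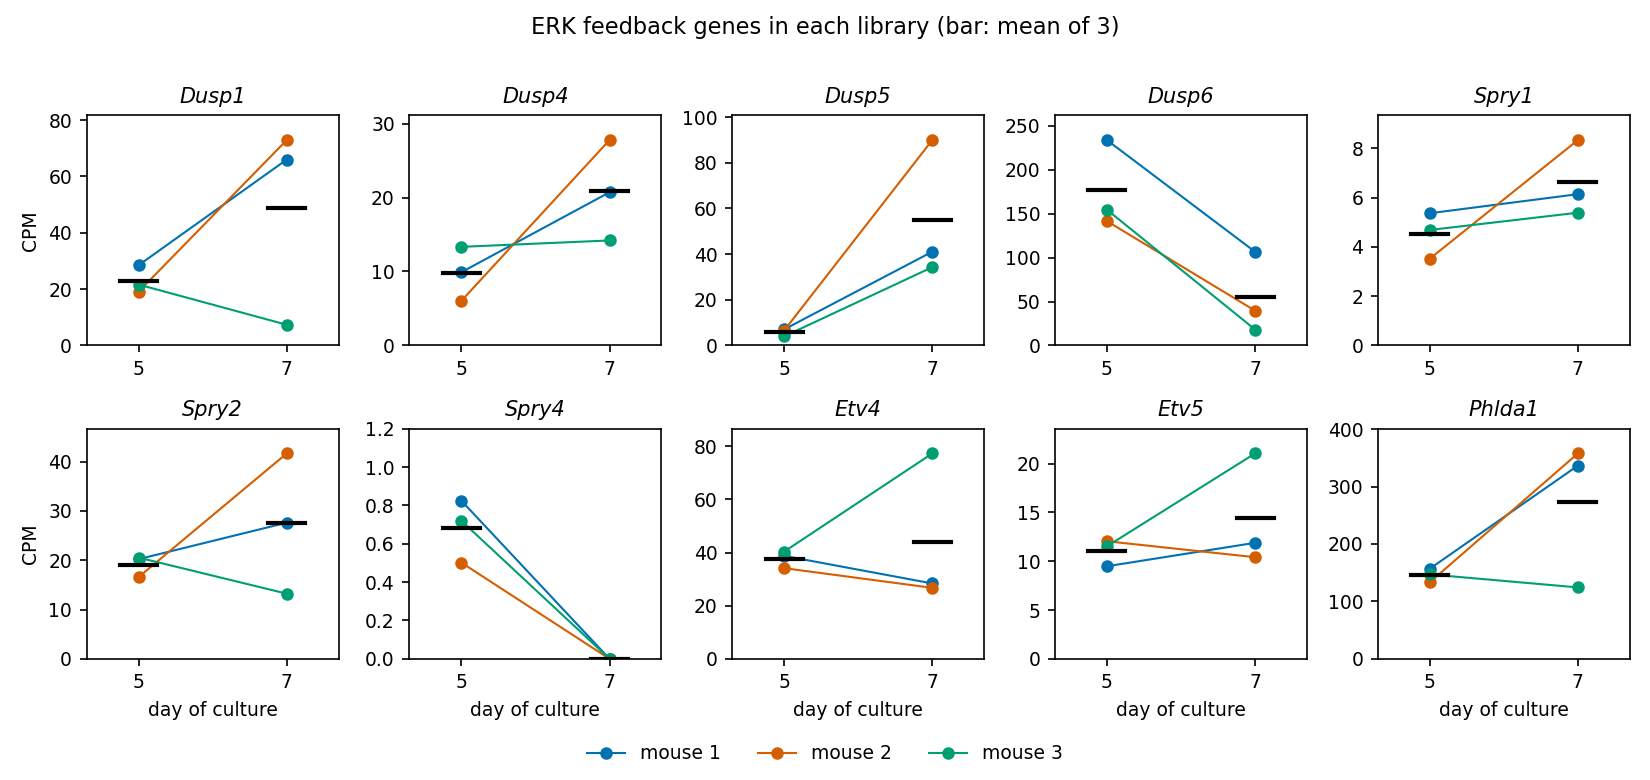
Level of each feedback gene in CPM (vertical axes, each from 0) on day 5 and day 7, with 1 point per library, a line joining the libraries of a mouse and a black bar at the mean of 3. *Dusp5* lay between 3.96 and 7.01 CPM at day 5 and between 34.3 and 89.9 CPM at day 7, while *Dusp1*, *Spry2* and *Phlda1* were higher at day 7 in mice 1 and 2 and lower in mouse 3.

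The MAP kinase phosphatases remove phosphates from the activation loop of ERK and related kinases, and they differ in place and target. *Dusp5* encodes a nuclear phosphatase that acts on ERK and holds it in the nucleus. *Dusp5* (ENSMUSG00000034765, GRCm39 chromosome 19, 53517532 to 53530862) had 7.01, 6.53 and 3.96 CPM in mice 1, 2 and 3 at day 5, from 17, 13 and 11 counts. At day 7 it had 41.0, 89.9 and 34.3 CPM, from 107, 259 and 70 counts. The days were far apart, and the lowest day 7 library lay well above the highest day 5 library. The mean went from 5.83 ± 1.64 to 55.1 ± 30.4 CPM (mean ± SD of 3 mice), with log2 fold change 3.26, SE 0.38 (edgeR adjusted p = 1.55e-05). *Dusp5* passed whichever of the 6 libraries was left out, with log2 fold changes from 2.70 to 3.51, and under all 13 other settings.

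The start of *Dusp5* is shown because it is the member with the largest rise and its promoter is the only one among the members with a CArG box, the site of serum response factor (SRF), which works with ETS partners that ERK phosphorylates. The window runs from 250 bases before to 30 bases after the annotated start. In it, 2 CArG boxes lie end to end, from 38 to 29 and from 28 to 19 bases before the start. A CArG box on either strand was found in 1.33% of the promoters of 12974 coding genes tested. The promoters of *Dusp1* and *Dusp6* are set beside it, as the member that parted the mice most at day 7 and the member that fell. Capitals mark the CArG boxes of *Dusp5* and the cyclic AMP response element (CRE, TGACGTCA) of *Dusp1*.
*Dusp5* (chr19:53517282-53517561, plus strand): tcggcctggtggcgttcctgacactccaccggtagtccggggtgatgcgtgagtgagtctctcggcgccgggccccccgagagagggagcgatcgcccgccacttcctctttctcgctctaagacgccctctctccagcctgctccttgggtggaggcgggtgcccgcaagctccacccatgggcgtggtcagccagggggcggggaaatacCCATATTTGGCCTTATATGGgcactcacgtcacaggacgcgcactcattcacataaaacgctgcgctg
*Dusp1* (chr17:26727464-26727743, minus strand): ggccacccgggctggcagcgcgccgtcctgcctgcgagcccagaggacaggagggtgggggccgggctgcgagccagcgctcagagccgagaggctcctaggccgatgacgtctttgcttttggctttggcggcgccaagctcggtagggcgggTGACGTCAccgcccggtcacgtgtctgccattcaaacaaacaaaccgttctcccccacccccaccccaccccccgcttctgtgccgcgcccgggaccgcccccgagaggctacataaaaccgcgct
*Dusp6* (chr10:99098818-99099097, plus strand): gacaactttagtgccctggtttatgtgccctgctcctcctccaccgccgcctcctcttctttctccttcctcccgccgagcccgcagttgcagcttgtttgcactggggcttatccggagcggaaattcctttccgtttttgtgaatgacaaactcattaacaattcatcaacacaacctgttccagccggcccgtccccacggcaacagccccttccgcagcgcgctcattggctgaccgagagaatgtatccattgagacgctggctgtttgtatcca
The CRE of *Dusp1* lay 96 to 89 bases before the start, and 2.99% of all coding promoters held this motif. The *Dusp6* window held none of the 4 motifs searched on both strands, which were CArG, CRE, AP-1 (TGANTCA) and ETS (CCGGAA). Of the other members, *Etv5* held an AP-1 motif (5.57% of all coding promoters) and *Spry4* an ETS motif (22.4%). These matches describe letters in the windows, and no binding was measured.

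*Dusp6*, which encodes the cytoplasmic phosphatase selective for ERK and is a standard marker of FGF and ERK signalling, moved the other way. *Dusp6* (ENSMUSG00000019960, chromosome 10, 99086564 to 99103361) had 234, 142 and 155 CPM in mice 1, 2 and 3 at day 5. At day 7 it had 107, 39.6 and 18.1 CPM. It was lower at day 7 in every mouse and the days did not overlap, but the day 7 libraries differed from each other by 5.89-fold. The mean went from 177 ± 50.0 to 54.8 ± 46.2 CPM (mean ± SD of 3 mice), with log2 fold change -1.68, SE 0.39 (edgeR adjusted p = 0.00832). The fall missed the threshold with DESeq2 (-1.69, adjusted p = 0.118) and with robust = TRUE in edgeR (-1.68, adjusted p = 0.214). It also missed it without day 5 replicate 1 (-1.42, edgeR adjusted p = 0.0761) or day 7 replicate 2 (-1.48, edgeR adjusted p = 0.0877), and it was -2.59 without day 7 replicate 1.

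*Dusp4*, which encodes a nuclear phosphatase of ERK and JNK, rose. *Dusp4* (ENSMUSG00000031530, chromosome 8, 35274442 to 35287048) had 9.90, 6.03 and 13.3 CPM in mice 1, 2 and 3 at day 5, and 20.7, 27.8 and 14.2 CPM at day 7. The groups did not overlap, yet in mouse 3 the 2 days were nearly level. The log2 fold change was 1.08 with an SE of 0.33 (edgeR adjusted p = 0.0387). The call was close to the threshold. It was lost under 6 of 13 other settings, with edgeR, DESeq2 or limma adjusted p from 0.0536 to 0.250. It was also lost without day 5 replicate 1, 2 or 3 (1.08, 0.85 and 1.38) and without day 7 replicate 2 (0.82).

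*Dusp1* encodes a nuclear phosphatase of p38, JNK and ERK, and it is also a known target of glucocorticoids such as the dexamethasone in this medium. *Dusp1* (ENSMUSG00000024190, chromosome 17, 26724564 to 26781102) had 28.5, 19.1 and 21.6 CPM in mice 1, 2 and 3 at day 5. At day 7 it had 66.0, 72.9 and 7.34 CPM. Mice 1 and 2 lay above all day 5 libraries at day 7, and mouse 3 lay below all of them. The log2 fold change was 1.09 ± 0.47 (SE), with a 95% interval from 0.12 to 2.07, and the threshold was missed (edgeR adjusted p = 0.139). With the mouse as a block it passed (0.76, edgeR adjusted p = 0.0394). It also passed with no filter (1.09, edgeR adjusted p = 0.000451) and without day 7 replicate 3 (1.58, edgeR adjusted p = 4.61e-05). With no filter the log2 fold change was as above, and only the adjusted p moved. The block and the fit with no filter also gave *Dusp5* edgeR adjusted p of 1.85e-21 and 1.15e-23, and the reason was not tested. *Dusp1* was lower at day 7 in mouse 3, so no pass shows a rise shared by the 3 mice.

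*Phlda1* encodes a pleckstrin homology-like protein that is switched on by ERK and is known as a marker of epithelial stem cells in gut and hair follicle. *Phlda1* (ENSMUSG00000020205, chromosome 10, 111342147 to 111344506) had 157, 133 and 147 CPM in mice 1, 2 and 3 at day 5, a narrow range. At day 7 it had 336, 358 and 124 CPM. As for *Dusp1*, mice 1 and 2 were above and mouse 3 below every day 5 library, so the rise was not shared by the 3 mice. The log2 fold change was 0.91 with an SE of 0.28 (edgeR adjusted p = 0.0426). It stayed past the threshold in 1 of the 6 fits without a library, the fit without day 7 replicate 3 (1.25, edgeR adjusted p = 1.66e-05). It was lost without day 5 replicate 1, 2 or 3 (0.96, 0.85 and 0.91), without day 7 replicate 1 or 2 (0.73 and 0.67), and under 8 of 13 other settings.

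Sprouty proteins act near the membrane and limit the passage of the signal from receptors to RAS. *Spry2* (ENSMUSG00000022114, chromosome 14, 106128766 to 106136446) had 20.2, 16.6 and 20.5 CPM in mice 1, 2 and 3 at day 5, and 27.6, 41.7 and 13.2 CPM at day 7. Mouse 3 was again the library below all of day 5. The log2 fold change was 0.54 with a 95% interval from -0.14 to 1.22 (edgeR adjusted p = 0.310), and without day 7 replicate 3 it was 0.85 and passed (edgeR adjusted p = 0.0159). *Spry1* (ENSMUSG00000037211, chromosome 3, 37693897 to 37698755) was low, with 5.36, 3.51 and 4.68 CPM in mice 1, 2 and 3 at day 5 and 6.14, 8.33 and 5.38 CPM at day 7. Its days touched without crossing, on 33 and 51 counts in all. The log2 fold change was 0.55 with a 95% interval from -0.27 to 1.37 (edgeR adjusted p = 0.388). *Spry4* (ENSMUSG00000024427) had 2, 1 and 2 counts at day 5 and 0 in each day 7 library, which is under the limit of 3 counts that a count of 0 allows. A difference in *Spry4* was not detectable at this depth.

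*Etv4* and *Etv5* encode ETS transcription factors of the PEA3 group, which FGF signalling switches on at the tips of branching epithelia. *Etv4* (ENSMUSG00000017724, chromosome 11, 101660568 to 101676197) had 38.8, 34.1 and 40.4 CPM in mice 1, 2 and 3 at day 5, and 28.4, 26.7 and 77.3 CPM at day 7. *Etv5* (ENSMUSG00000013089, chromosome 16, 22200052 to 22259662) had 9.49, 12.0 and 11.5 CPM at day 5, and 11.9, 10.4 and 21.0 CPM at day 7. Mouse 3 thus had the highest value of both genes at day 7, where it had the lowest value of the other 7 members counted. The log2 fold change was 0.20 for *Etv4* (95% interval -0.47 to 0.88, edgeR adjusted p = 0.752) and 0.37 for *Etv5* (95% interval -0.31 to 1.05, edgeR adjusted p = 0.504). Neither passed the threshold. Without day 7 replicate 3, *Etv4* turned to -0.46 (edgeR adjusted p = 0.104) and *Etv5* to 0.017 (edgeR adjusted p = 0.972).

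**Figure D2:**
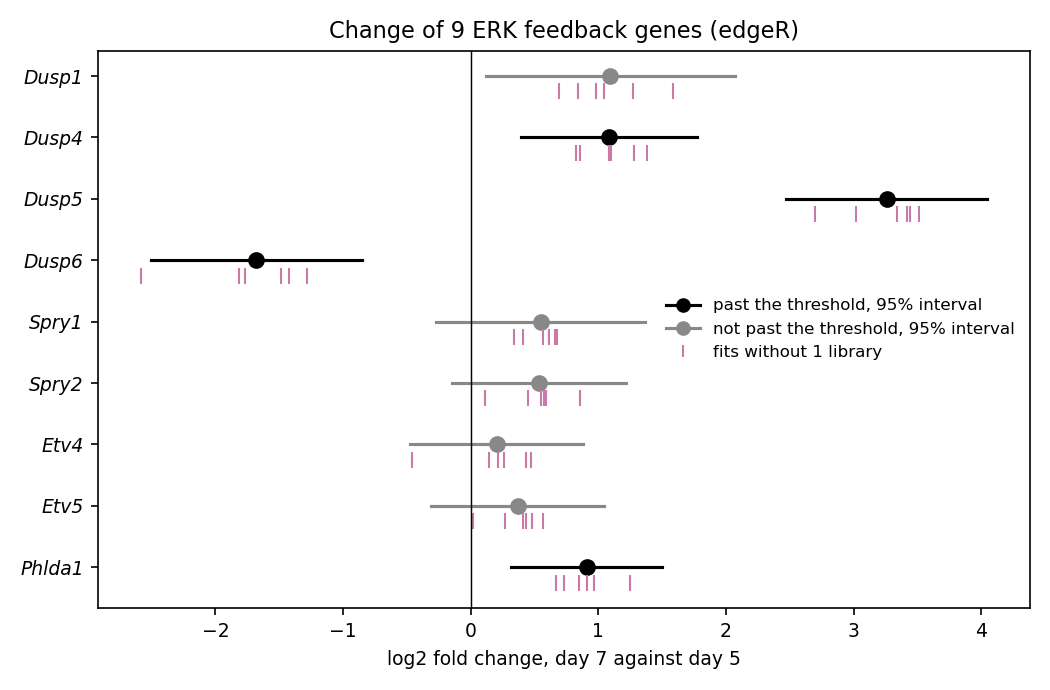
Log2 fold change of day 7 against day 5 (horizontal axis) for the 9 feedback genes above the limit of detection, with points and 95% intervals from edgeR in black where past the threshold and grey where not, and pink ticks for the 6 fits without 1 library. *Dusp5* at 3.26 and *Dusp6* at -1.68 lie furthest from 0 in opposite directions.

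The 3 mice were then compared gene by gene, since each gave mSGOs at both days. Of the 9 members other than *Spry4*, which is left out as under the limit of detection, *Dusp4*, *Dusp5*, *Dusp6* and *Spry1* had the same direction in all 3 mice. The same 4 were those whose days did not overlap, where 30.9% of all genes tested did not. Of the 8 members averaging 10 CPM or more, 3 had the same direction in all mice and 3 had days that did not overlap, against 53.5% and 39.6% of the 8172 genes at that level. Within a mouse, with a prior count of 2, the log2 ratio of day 7 to day 5 for *Dusp1* was 1.19, 1.89 and -1.46 in mice 1, 2 and 3. For *Phlda1* it was 1.10, 1.42 and -0.24, and for *Spry2* it was 0.44, 1.29 and -0.61. These genes were higher at day 7 in mice 1 and 2 and lower in mouse 3. For *Etv4* the ratios had the opposite signs, with -0.44, -0.34 and 0.92.

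**Figure D3:**
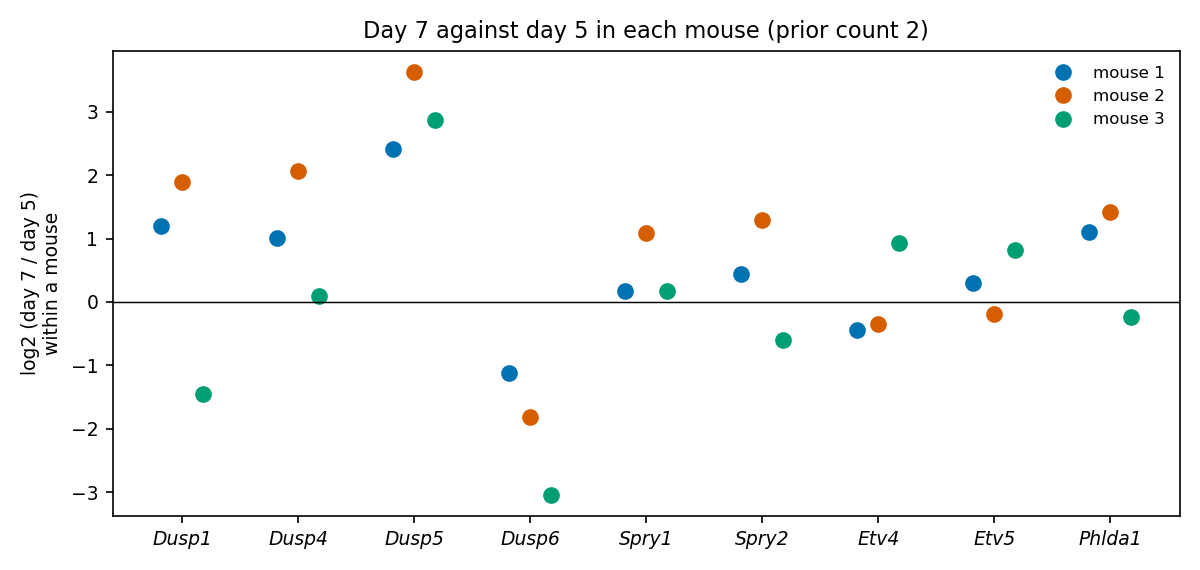
Log2 ratio of day 7 to day 5 within each mouse (vertical axis, prior count of 2) for 9 feedback genes, with 1 point per mouse. *Dusp5* is above 0 and *Dusp6* below 0 in every mouse, and *Dusp1* runs from -1.46 in mouse 3 to 1.89 in mouse 2.

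The day 7 library of mouse 3 thus set several of these values. Leaving out *Spry4*, it had the lowest level of 7 of 9 members and the highest of the other 2. Over the 8172 genes averaging 10 CPM or more, this library was lowest in 39.1% and highest in 42.6%. A library lowest in most members was not particular to day 7. The day 5 library of mouse 2 was also lowest in 7 of 9 members, and in 35.5% of those 8172 genes. At day 5 the members were closer together, and the ratio of the highest to the lowest library had a median of 1.49 over the 9 members, against 1.23 over those 8172 genes. At day 7 these medians were 2.88 and 1.56. The sets are not alike, since the 9 members include *Spry1*, which averaged less than 10 CPM. Some members also had few counts at day 5 (41 for *Dusp5* and 73 for *Dusp4*), where counting error adds to this ratio. The largest spread was that of *Dusp1* (9.93-fold between libraries of day 7), followed by *Dusp6* (5.89-fold) and *Spry2* (3.15-fold). The sum of the squamous markers, given above, was also lowest in mouse 3 at day 7, as were 10 of the 15 markers, while 4 were lowest in mouse 1 and 1 in mouse 2.

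Some feedback transcripts are known to be short-lived through AU-rich elements, runs of the pentamer ATTTA in the 3′ untranslated region, so the pentamer was counted in the canonical transcript of each member. *Dusp1* held 4 in 690 bases and *Phlda1* held 3 in 612 bases, densities above those of 96.2% and 94.2% of 12860 coding genes tested. *Dusp5* and *Dusp6* held 1 each, in 1109 and 1200 bases, and *Etv4* held none. In all, 7 of 10 members lay above the median density of 1.33 per 1000 bases. The site of *Dusp1* is shown because 2 pentamers overlap there (capitals).
*Dusp1* (chr17:26725131-26725160, minus strand): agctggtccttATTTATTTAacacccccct

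Other genes of the pathway were read in the same way, together with 6 glucocorticoid-responsive genes that are not part of it. Of 56 tested, in 6 lists, *Errfi1*, *Ier3*, *Junb* and, of the glucocorticoid list, *Tsc22d3* and *Klf9* rose and *Fosl1* fell. That is 6 of 56, close to the 12.0% of all genes, with a median log2 fold change of 0.18. With the mouse as a block there were 11, 7 higher and 4 lower, where 14.8% of all genes tested passed in that fit. Among those added were *Il17rd* (1.04, edgeR adjusted p = 0.0329) and *Epha2* (0.89, edgeR adjusted p = 0.0347), and the other 3 were falls in *Dusp7* (-0.98), *Fos* (-1.30) and *Hras* (-0.69), named here after their values were seen. These calls come from the fit that gave *Dusp5* an edgeR adjusted p of 1.85e-21, for a reason not tested. *Dusp7* was level between the days in mouse 1. Without the block, the count of 6 was 3, 2 and 2 without day 5 replicate 1, 2 and 3, and 13, 3 and 16 without day 7 replicate 1, 2 and 3.

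Of 9 other inhibitors of receptors and RAS tested, 1 rose and 0 fell. *Errfi1*, which encodes a cytoplasmic inhibitor of the EGF receptor, had 8.66, 10.0 and 10.1 CPM in mice 1, 2 and 3 at day 5, and 33.0, 76.7 and 29.4 CPM at day 7. All 3 mice were higher at day 7, as for *Dusp5*. Its log2 fold change was 2.28 with an SE of 0.35 (edgeR adjusted p = 0.000271), and it was past the threshold without any 1 library (1.70 to 2.52). *Il17rd*, which encodes the FGF receptor inhibitor SEF, stood at 1.06 on the log2 scale (edgeR adjusted p = 0.0546). The Sprouty-related inhibitors *Spred1* (0.28) and *Spred2* (0.25) were not past the threshold. Neither was any of the 6 other MAP kinase phosphatases, with edgeR log2 fold changes from -0.75 to 1.27.

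Of 10 other ERK target genes, 2 rose and 1 fell. *Ier3*, an immediate early gene that acts on cell survival, went from 84.7 ± 16.5 to 161 ± 26.0 CPM (mean ± SD of 3 mice), with log2 fold change 0.92 (edgeR adjusted p = 0.00638). *Junb*, which encodes an AP-1 subunit, had 116, 130 and 121 CPM in mice 1, 2 and 3 at day 5 and 297, 368 and 98.4 CPM at day 7, with log2 fold change 1.06 (edgeR adjusted p = 0.0334). Its day 7 values had the same order as those of *Dusp1* and *Phlda1*, with mouse 3 below day 5. *Fosl1*, which encodes the AP-1 subunit FRA1, fell from 32.6, 19.6 and 21.6 CPM to 14.96, 11.1 and 4.90 CPM, with log2 fold change -1.22 (edgeR adjusted p = 0.0237). *Ccnd1*, which encodes cyclin D1 (-0.26), *Epha2* (0.85, edgeR adjusted p = 0.0887) and *Epha4* (0.03, with a sign that turned under 2 other scalings) did not pass. The *Junb* call was lost under 6 of 13 other settings (adjusted p from 0.0585 to 0.245 by edgeR or limma). That of *Fosl1* was lost with glmTreat and on thinned counts (edgeR adjusted p = 0.160 and 0.0643), and that of *Ier3* with glmTreat (edgeR adjusted p = 0.219). *Junb* and *Fosl1* missed the threshold without day 5 replicate 1, 2 or 3 (1.02, 1.11 and 1.05 for *Junb* and -0.97, -1.36 and -1.32 for *Fosl1*) and without day 7 replicate 2 (0.70 and -1.27). *Ier3* missed it without day 5 replicate 2 (0.79) or 3 (0.94).

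The kinases and adaptors of the cascade and the receptors gave no call. None of 18 cascade genes and none of 7 receptor genes passed edgeR's threshold. An unadjusted edgeR p under 0.05 was found for 4 and 0 of them, where 25.8% of all genes tested had one. By DESeq2 the count past the threshold was also 0 for both lists, and with the mouse as a block *Hras* passed, as given above. With library totals only as scaling, *Hras* and *Map2k2* passed as lower, *Map2k2* being named after its values were seen. *Sos2*, also named after its values were seen, passed as higher with filterByExpr and with a mean count of at least 10. It also passed as higher without day 7 replicate 1 or 3. *Mapk3*, which encodes an ERK kinase, had a log2 fold change of 0.45 (95% interval -0.14 to 1.03). *Mapk3* passed without day 7 replicate 3 (0.78, edgeR adjusted p = 0.00204). Of the receptors for the growth factors in the medium, *Egfr* had 109, 93.9 and 93.3 CPM in mice 1, 2 and 3 at day 5 and 86.3, 83.7 and 54.8 CPM at day 7, with log2 fold change -0.39 (95% interval -0.84 to 0.050). *Fgfr1* (0.15, 95% interval -0.28 to 0.57) and *Fgfr2* (0.10, 95% interval -0.58 to 0.77, with a sign that turned on thinned counts) were also not past the threshold.

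Dexamethasone was in the medium at both days, and 6 glucocorticoid-responsive genes were read beside *Dusp1*. *Tsc22d3*, which encodes the glucocorticoid-induced leucine zipper GILZ, rose from 32.6, 22.6 and 29.9 CPM in mice 1, 2 and 3 to 56.4, 80.5 and 54.3 CPM, with log2 fold change 1.17, SE 0.24 (edgeR adjusted p = 0.00305). It was higher in all 3 mice and stayed past the threshold without any 1 library. *Klf9*, which encodes a Krüppel-like factor, rose by 1.07 (edgeR adjusted p = 0.00754), and missed the threshold without day 5 replicate 1, 2 or 3 (1.04, 1.09 and 1.08) or day 7 replicate 2 (0.90). With glmTreat, *Tsc22d3* and *Klf9* both missed the threshold (edgeR adjusted p = 0.0697 and 0.138). The other 4 glucocorticoid-responsive genes did not pass edgeR's threshold.

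**Figure D4:**
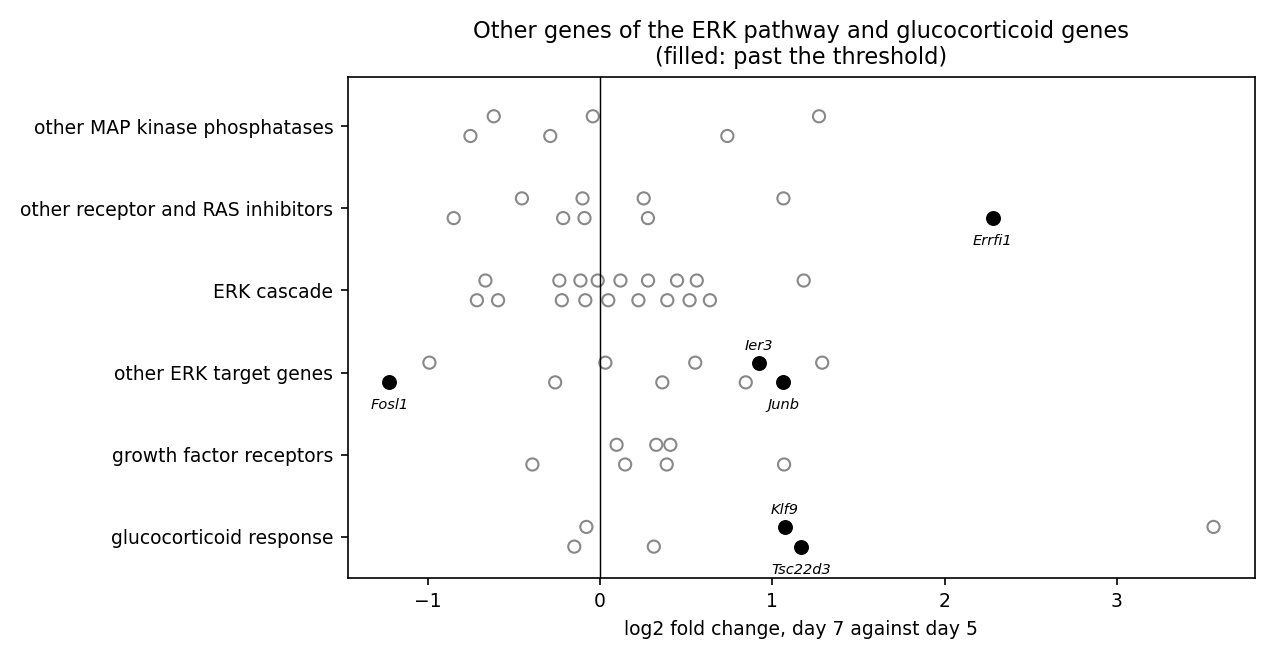
Log2 fold change of day 7 against day 5 (horizontal axis) for 56 other genes in 6 lists, with 1 point per gene, filled and named where past the threshold. Most genes lie near 0, *Errfi1* is the called gene furthest to the right at 2.28, *Fosl1* is the called gene to the left at -1.22, and the open point furthest to the right is *Zbtb16*, with 1 count at day 5 and named for its place in the plot.

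Shared sequence was checked at the 3′ ends. The last 500 bases of each member's canonical transcript matched no other gene over 50 bases or more at 95% identity. Exons of 8 of the 10 members overlap a gene annotated on the opposite strand, the exceptions being *Dusp4* and *Spry4*, so without a stated strand setting a share of their reads is uncertain.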

How the data were processed

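3′-end RNA-seq was measured in 6 libraries of untreated mSGOs, 3 from day 5 and 3 from day 7. Each deposited file holds raw counts of reads, 1 whole number for each Ensembl ID, without scaling. The authors used GRCm39 as reference. The aligner, the annotation release and the strand setting are not given in the sources used here. Entries that name no gene (13.7% to 14.4% of reads at day 5 and 9.12% to 9.74% at day 7) were left out.

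IDs were named by exact match to GENCODE vM39, which found 43465 of 47643. A gene needed 1 count or more in 2 or more libraries, which left 15792 for testing. The days were compared in edgeR 4.0.16 (R 4.3.3) with its quasi-likelihood F test, two-sided, with TMM normalisation, day as the only term and Benjamini-Hochberg adjustment over all genes tested. The filter and the thresholds (adjusted p under 0.05, log2 fold change beyond 0.6 either way) follow the methods of the study. Intervals are at 95%. CPM are counts per 1000000 of the TMM-scaled library size. A count of 0 allows up to 3 counts, which is 1.06 to 1.56 CPM and covers counting error only, since no molecular identifiers are described for these libraries. On simulated counts, 100% of changes of 2 and 54.0% of changes of 1 on the log2 scale were recovered, over 15181 genes in a simulated comparison of day 7 with day 5.

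Per the titles, a number shared by a day 5 and a day 7 library marks 1 mouse. For the 8172 genes averaging 10 CPM or more, each mouse's departure from the day 5 mean was correlated with its departure from the day 7 mean, which gave 0.14 for mouse 1, -0.10 for mouse 2 and 0.16 for mouse 3. Values from a model that adds the mouse as a block are printed where they changed a call. No library was a copy of another (chi-square over degrees of freedom of 1.99 or more for any same-day pair). The alternatives were 3 other scalings, 3 other filters, DESeq2 1.42.0, limma 3.58.1 (voom), robust = TRUE, glmTreat, thinned counts, leaving out the most abundant ID and leaving out each library in turn.

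The members and lists were chosen with earlier results of these data known. The genes named are all members, up to 4 genes of each other list past the threshold with the smallest p, and further genes named whatever their values (*Egfr*, *Fgfr1*, *Fgfr2*, *Mapk3*, *Ccnd1*, *Epha2*, *Epha4*, *Spred1*, *Spred2*, *Il17rd* and *Tsc22d3*). A gene that this rule also names is not reported here. Genes outside this rule are marked where they appear. Sequences were read from GRCm39 with the canonical transcripts of GENCODE vM39.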

Additional observations from a re-analysis of the deposited data

How the results depend on the processing

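The number of feedback genes past the threshold was 4, and it was 2 with library totals only, filterByExpr, a mean count of at least 10, DESeq2, robust = TRUE, glmTreat and limma voom, 3 with upper quartile scaling and with thinned counts, and 5 with no filter and with the mouse as a block. It ranged from 1 to 6 without 1 library. *Dusp5* was in every one of these counts. Over all genes, the count of 1901 was 622 with glmTreat and 797 to 2576 without 1 library. Over the other pathway and glucocorticoid genes, the count of 6 was 11 with no filter, 1 with glmTreat and 2 to 16 without 1 library. In the fit with the mouse as a replicate block it was 11. Beside the calls given with the results, the block changed no other call among the named genes. Some values that were not past the threshold changed sign. *Etv4* was -0.0033 with limma voom and -0.46 to 0.47 without 1 library. *Epha4* was -0.0082 with upper quartile scaling, -0.061 with library totals only and -0.089 to 0.16 without 1 library. *Fgfr2* was -0.023 on thinned counts and -0.097 to 0.41 without 1 library. *Spred2* was -0.27 to 0.73 without 1 library. The cause of these changes was not tested. *Spry4*, with 5 counts in all, was limited by depth.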

Other observations

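*Dusp7*, which encodes a cytoplasmic ERK phosphatase close to DUSP6, was looked at after its values were seen. It had 550, 587 and 567 CPM in mice 1, 2 and 3 at day 5, and 563, 318 and 128 CPM at day 7. Mouse 1 was level between the days, while mice 2 and 3 were lower at day 7, in the same order as for *Dusp6*. Without the block the log2 fold change was -0.75 (edgeR adjusted p = 0.150). *Fos* had 118, 43.7 and 49.7 CPM at day 5 and 78.6, 14.6 and 12.2 CPM at day 7, lower at day 7 in all 3 mice with overlapping days (-0.99, edgeR adjusted p = 0.218).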
